A study of Mus musculus with 60 samples.

Results

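To ask whether a neuron that carries both activity tags has the transcriptome expected from adding the effects of the 2 tags, the 48 sorted libraries of the design were taken out of the 60 in the series by the codes in their titles: overlapping (tdTomato and cFos), cocaine-seeking (tdTomato alone), sucrose-seeking (cFos alone) and non-ensemble (neither tag), with 12 libraries each. A further 12 libraries labelled naïve were not used. The mice carried the genotype labelled Ai14xFosiCre, in which a tamoxifen-dependent Cre expressed from the Fos locus switches on tdTomato from the ubiquitous Ai14 reporter. All groups, the non-ensemble included, came from these same mice after self-administration of both cocaine and sucrose, extinction, and a cued cocaine-seeking and then a cued sucrose-seeking session. By the study's methods 4-hydroxytamoxifen given after the cocaine session fixed the tdTomato tag in young adult females and males, and cFos protein was stained in cells taken after the sucrose session. NeuN-positive cells of the nucleus accumbens (NAc, labelled Nucleus-accumbens-core) and the medial prefrontal cortex (mPFC, labelled Prefrontal-cortex) were sorted from pools of 3 mice. Each region has 6 pools, 3 female (F1 to F3) and 3 male (M1 to M3), and each pool gave all 4 populations, so that a pool is the replicate. A population is a gate on 2 fluorescence axes rather than a cell type, and the tdTomato tag records Fos promoter activity at the cocaine session while the cFos tag records protein at the sucrose session. The study assigns tdTomato to the cocaine-seeking gate throughout, but it gives the quadrants of the 2 single-tag gates in opposite ways in 2 places. An exchange of the 2 would leave the interaction as it is and would swap which tag each simple difference below refers to, and no tdTomato transcript was among those counted, so this was not tested.

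Fos encodes a transcription factor that neurons make within minutes of strong activity, and cells that turn it on together during a behaviour are called an ensemble. Calcium and cAMP signals reach such immediate early genes through CREB, which binds the cAMP response element (CRE) in their promoters, and Fos protein with a Jun partner then acts at AP-1 sites in later genes. In the NAc most neurons are GABAergic medium spiny neurons with D1 or D2 dopamine receptors. In the mPFC most are glutamatergic pyramidal cells, and both regions hold interneurons.

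The promoters of 3 immediate early genes are shown because Fos is the source of both tags and because Npas4 and Egr4 departed from the additive expectation in opposite directions in the mPFC, as described further on. The 250 bases before the annotated start are given 5′ to 3′ from RefSeq (GRCm38.p6, with Fos at chr12:85473640-85473889 on the plus strand, Npas4 at chr19:4989972-4990221 and Egr4 at chr6:85513590-85513839 on the minus strand), and capitals mark the CRE half-site TGACG or its reverse complement CGTCA.
Fos: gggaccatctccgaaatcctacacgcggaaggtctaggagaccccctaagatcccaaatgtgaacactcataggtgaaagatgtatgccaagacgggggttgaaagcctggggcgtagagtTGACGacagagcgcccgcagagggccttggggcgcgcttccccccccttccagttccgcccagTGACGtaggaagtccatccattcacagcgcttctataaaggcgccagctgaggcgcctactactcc
Npas4: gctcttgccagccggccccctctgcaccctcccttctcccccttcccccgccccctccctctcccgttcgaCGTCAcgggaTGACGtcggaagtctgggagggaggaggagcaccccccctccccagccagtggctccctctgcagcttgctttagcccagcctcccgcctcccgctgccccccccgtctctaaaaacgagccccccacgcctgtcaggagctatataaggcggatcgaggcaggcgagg
Egr4: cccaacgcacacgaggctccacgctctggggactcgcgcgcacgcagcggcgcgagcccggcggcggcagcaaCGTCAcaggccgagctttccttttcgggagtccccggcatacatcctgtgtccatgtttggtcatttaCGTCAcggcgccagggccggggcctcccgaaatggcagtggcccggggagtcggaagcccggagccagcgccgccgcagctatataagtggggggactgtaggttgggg
Each of the 3 held 2 half-sites, no full CRE (TGACGTCA) and no AP-1 site (TGANTCA), searched on both strands. A half-site stood in the same window of 17.9% of 27025 genes with a promoter sequence. Among the genes tested here it stood in 22.8% of 14394 in the NAc and 22.6% of 14713 in the mPFC. Its share was 29.8% of 2554 genes called above the additive expectation and 22.2% of 1113 called below it in the NAc, and 30.5% of 2177 and 22.5% of 1048 in the mPFC. AP-1 sites stood in 3.64% of genes called above and 6.56% of genes called below in the NAc, against 5.62% of those tested, and in 3.72% and 6.3%, against 5.7%, in the mPFC. These shares describe letters in a window and not binding, and were not matched for base composition or level. Calls above were themselves more frequent among abundant genes and genes of high GC content, as described further on. Among NAc genes of at least 10 CPM, 44.6% were called above in the quintile of highest GC content and 14.8% in the lowest. In the mPFC these were 34 and 14.3%. Whether the motif shares follow base composition or level was not tested.

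The 48 libraries held 9466644 to 23773400 estimated counts in annotated genes (median 13200349), and levels are given as CPM, counts scaled to a common library size. The labels were checked first. In 30 samples of the series the description names another region or sex than the title, and in 2 the sex entry differs from it, so groups follow the titles. Ddx3y, a Y-linked gene, lay at 15.7 to 43.1 CPM in male NAc libraries and 24.3 to 43.3 CPM in male mPFC libraries. It was 0.345 to 2.01 and 0.0809 to 1.14 CPM in those of the female pools F1 and F3, but 11.3 to 18.2 and 15.3 to 20.4 CPM in pool F2, so for this gene the pool labelled F2 goes against its label. The F2 medians, 12.35 and 18.0 CPM, lay below the male ones of 34.4 and 33.3 CPM. Y-linked Eif2s3y was 4.60 to 13.4 and 10.2 to 16.8 CPM in F2, and at most 1.18 and 1.13 CPM in F1 and F3. Uty, at 17.3 to 40.9 CPM in F2, overlapped both F1 and F3 (18.5 to 34 CPM) and males (19.1 to 58.9 CPM) in the mPFC. Slc17a7, the vesicular glutamate transporter of cortical pyramidal neurons, was 130 to 569 CPM in the NAc. In the mPFC it was 62.7 to 98.4 CPM in pools F1 and F3, 21.6 to 29.1 CPM in F2 and 34.2 to 662 CPM in male pools. The striatal phosphoprotein gene Ppp1r1b reached 80.6 to 768 CPM in the mPFC, against 416 to 1151 CPM in the NAc. In 5 of the 6 pools, all but M3, every NAc library had more Slc17a7 than every mPFC library, as in pool M1 with 457 to 569 CPM in the NAc and 276 to 412 CPM in the mPFC. For Slc17a7 the labels of both regions are thus contradicted in those pools. The median Ppp1r1b level, with the labels, was higher in the NAc in 6 of 6 pools. Neurod6, a cortical marker, followed the labels in pool M1, at 18.27 to 20.77 CPM in the mPFC and 5.586 to 11.79 in the NAc. So did the D1 receptor gene Drd1 in M1, at 11.47 to 15.28 and 50.5 to 64.97 CPM. Between the regions, Neurod6 ranges overlapped in pools F1, F2 and M2, and Drd1 ranges in M2. The 4 mPFC pools with a median Slc17a7 level under 100 CPM (F1, F2, F3 and M2) depart most from a cortical dissection. These check values are CPM without TMM normalisation factors, whereas the gene levels that follow carry them. Counts of calls are also given without pool F2 and without those 4 pools. In sorted bulk samples, fewer cells of a type and less RNA per cell cannot be told apart.

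The interaction is overlapping minus cocaine-seeking minus sucrose-seeking plus non-ensemble on the log2 scale. It is 0 where the 2 tags add up, positive where the overlapping level lies above that additive expectation and negative where it lies below. Put otherwise, it is the cFos difference among tdTomato-positive cells (overlapping minus cocaine-seeking) less the cFos difference among tdTomato-negative cells (sucrose-seeking minus non-ensemble). Genes were fitted with the edgeR quasi-likelihood test with the pool as a block, and a gene is called at an adjusted p under 0.05.

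Additivity failed for many genes in both regions. In the NAc 3299 of 25150 genes tested lay above the additive expectation (13.1%) and 1941 below it (7.72%). In the mPFC 2833 of 26861 lay above (10.5%) and 1752 below (6.52%). The genes above were mostly abundant ones, with a median level of 81.3 CPM in the NAc and 78.0 CPM in the mPFC, and 20 and 27 of them were pseudogenes. Those below had a median of 24.6 and 38.0 CPM and included 293 and 239 pseudogenes. The median interaction over all genes tested was −0.15 in the NAc and −0.11 in the mPFC, beside which the lists of genes below are set. This value moved with the scaling, to −0.14 and −0.039 with DESeq2 size factors and to 0.039 and 0.045 with the receptor gene covariate described next. With DESeq2 size factors in place of TMM factors the mPFC split became 3559 above and 1376 below, and with length-scaled TPM counts it became 760 above and 158 below.

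Several properties of the libraries moved with the same contrast. The share of counts in odor, pheromone and taste receptor genes, which neurons of these regions are not known for, had an NAc median of 2.46% (overlapping), 2.57% (cocaine-seeking), 3.39% (sucrose-seeking) and 1.50% (non-ensemble). In the mPFC the medians were 3.82, 3.87, 4.48 and 2.54% in the same order. Its log2 departure from additivity, taken within each pool, averaged −0.903 ± 0.285 in the NAc and −0.672 ± 0.439 in the mPFC (SD, n = 6 pools), below 0 in 6 of 6 pools of both regions (exact sign-flip test, two-sided, p = 0.031, the smallest that 6 pools allow). The pseudogene share departed by −0.706 ± 0.233 and −0.59 ± 0.344 and the mitochondrial share by 0.673 ± 0.159 and 0.595 ± 0.332, each with 6 of 6 pools on that side. With the receptor gene share added to the model as a covariate, a choice made after seeing the data, 1 gene was called in the NAc, and in the mPFC 1182 were called, 663 above and 519 below, of which 1011 were also called without it. The covariate raised the median standard error of the interaction to 0.649, against 0.334 without it, in the NAc. Whether this share took part in the results that follow was not tested.

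Without the pool block 2701 genes were called in the NAc (1847 above, 854 below) and 485 in the mPFC (252 above, 233 below). Length-scaled TPM counts gave 2244 and 918 calls, of which 1592 and 839 were also called, in the same direction, with summed counts. Leaving out pool F2 left 4648 calls in the NAc and 4230 in the mPFC. Without the 4 mPFC pools of low Slc17a7, 718 genes were called there (443 above, 275 below), 643 of them called with all pools too. In that fit, which rests on pools M1 and M3 alone, 25 of the 50 genes chosen for the mPFC kept their direction but were no longer called, from Vcan (edgeR quasi-likelihood test, adjusted p = 0.0501) to Rgs9 (0.501), and without the pool block 34 of the 50, beside 9 of the 52 chosen for the NAc. Among the lists it left 7 of 13 mitochondrially encoded, 2 of 27 oxidative phosphorylation, 8 of 34 ribosomal protein, 8 of 20 presynaptic, 5 of 17 postsynaptic, 1 of 22 channel, 2 of 23 immediate early and 1 of 13 microglial genes above and 2 of 12 endothelial genes below. The list medians kept their sign in 27 of 28 lists, all but the oligodendrocyte markers (0.023).

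With the gates as labelled, the departure lay on the side of the tdTomato-negative cells. Sucrose-seeking and non-ensemble libraries differed at 9168 genes in the NAc, 4234 higher in sucrose-seeking (16.8%) and 4934 lower (19.6%), and at 7170 in the mPFC, 3257 higher (12.1%) and 3913 lower (14.6%). Overlapping and cocaine-seeking libraries, which also differ only in the cFos tag, differed at no gene in either region by the edgeR quasi-likelihood test, with 0 higher (0%) and 0 lower (0%). At an unadjusted p under 0.05 there were 1091 genes in the NAc and 1167 in the mPFC, limma-voom called 1 and 0, and DESeq2 called 4 in both regions. The median standard error was 0.237 and 0.222 for overlapping minus cocaine-seeking and 0.236 and 0.220 for sucrose-seeking minus non-ensemble. Both contrasts come from the same fit with a shared estimate of the spread. Near-equal values were thus built in and cannot compare the precision of the 2 pairs. Among genes of at least 10 CPM (10975 in the NAc, 11710 in the mPFC), the median absolute log2 difference was 0.0772 and 0.0727 for overlapping minus cocaine-seeking, against 0.383 and 0.293 for sucrose-seeking minus non-ensemble.

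**Figure D1:**
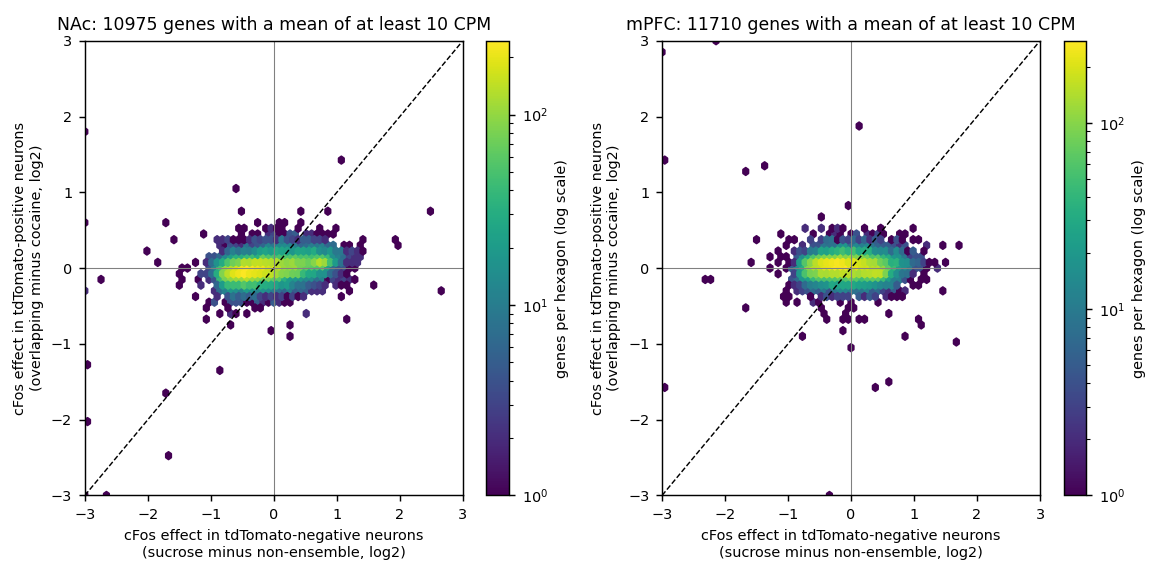
Each hexagon counts genes with a mean of at least 10 CPM (colour, log scale) by the cFos difference in tdTomato-negative cells (sucrose-seeking minus non-ensemble, log2, horizontal) and in tdTomato-positive cells (overlapping minus cocaine-seeking, log2, vertical), for the NAc on the left and the mPFC on the right, with values beyond the axes drawn at their ends. Additive genes would lie on the dashed diagonal, and the cloud instead lies flat along the horizontal axis, with a median absolute difference of 0.0772 on the vertical and 0.383 on the horizontal axis in the NAc.

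Among called genes, those with a larger absolute cFos difference in tdTomato-negative than in tdTomato-positive cells were 5168 of 5240 (98.6%) in the NAc and 4459 of 4585 (97.3%) in the mPFC, beside 78.3% and 72.2% of all genes tested. For genes above the expectation the median difference was −0.018 for overlapping minus cocaine-seeking and −0.57 for sucrose-seeking minus non-ensemble in the NAc. In the mPFC these medians were 0.049 and −0.49. For genes below it the NAc medians were 0.016 and 0.77, and the mPFC medians −0.055 and 0.55. The population that stood farthest from the other 3 was the overlapping one for 0.782% of called genes in the NAc, cocaine-seeking for 0.63%, sucrose-seeking for 53.3% and non-ensemble for 45.3%. In the mPFC these shares were 1.42, 1.33, 30.1 and 67.2%. Over all NAc genes tested they were 11.8, 10.2, 35.1 and 42.9%, and over all mPFC genes 13.1, 14.7, 24.8 and 47.4%.

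Along the other axis, in the fit with the pool block, the calls for tdTomato leaned lower in cells without cFos in both regions. In cells with cFos they leaned higher in the NAc and were nearly balanced in the mPFC. Cocaine-seeking minus non-ensemble libraries gave 1164 genes higher (4.63%) and 1657 lower (6.59%) in the NAc, and 1627 higher (6.06%) and 2796 lower (10.4%) in the mPFC. Overlapping minus sucrose-seeking gave 2213 higher (8.8%) and 907 lower (3.61%) in the NAc, and 1011 higher (3.76%) and 842 lower (3.13%) in the mPFC. Genes called above the additive expectation in the NAc had a median of −0.25 for cocaine-seeking minus non-ensemble and of 0.30 for overlapping minus sucrose-seeking, and in the mPFC −0.33 and 0.21. These genes were chosen for a positive interaction, and over all genes tested in the NAc the same medians were 0.078 and −0.023, and over all mPFC genes 0.092 and 0.0078. These 4 contrasts share libraries with the interaction and are its parts, not further evidence for it. Both counts along this axis shrank without the pool block, to 81 and 760 in the NAc and to 81 and 187 in the mPFC.

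The same genes recurred in both regions. Of 24945 genes tested in both, 3255 were called in both, which is 62.2% of the 5233 NAc calls and 71.2% of the 4570 mPFC calls, with 2223 above and 1032 below in both and 0 in opposite directions. The regions come from the same pools of mice. The difference of the interaction between the regions passed at 0 of 25871 genes in either direction (0%) by the edgeR quasi-likelihood test, with 1255 at an unadjusted p under 0.05 and 2 by DESeq2.

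The share of genes called above the additive expectation depended on level, and the counts in each list are to be read beside it. In the NAc it was 1.75% of all genes at 3 to 10 CPM, 9.25% at 10 to 30 CPM, 33.4% at 30 to 100 CPM, 56.6% at 100 to 300 CPM and 67.8% above 300 CPM. In the mPFC these shares were 0.835, 7.46, 28.2, 49.1 and 54%. The share called below was 1.43% in the NAc and 0.793% in the mPFC under 1 CPM, and 17.9 and 27.1% above 300 CPM. Differences between lists were not tested.

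Many transcripts of the energy and translation machinery lay above the additive expectation. All 13 genes encoded by the mitochondrial genome were called above in both regions, with a median interaction of 0.90 in the NAc and 0.71 in the mPFC. Of 27 nuclear genes for oxidative phosphorylation 18 were called above in the NAc (median 0.60) and 21 in the mPFC (median 0.56), and of 34 cytosolic ribosomal protein genes 26 (median 0.73) and 25 (median 0.57), with none below in either list. These shares were 66.7 and 77.8% for oxidative phosphorylation, at a median level of 55.1 and 45 CPM, and 76.5 and 73.5% for ribosomal proteins, at 74.5 and 72.6 CPM. Of 12 heat shock chaperones 9 and 10 were above (median 0.56 and 0.58), which is 75 and 83.3%, at a median level of 109 and 114 CPM. None of these genes was called for overlapping minus cocaine-seeking, as was true of all genes tested. Sucrose-seeking minus non-ensemble was lower at all 13 mitochondrial genes in both regions, beside 19.6 and 14.6% of all genes tested. In the mPFC the counts were 11 of the 13 mitochondrial, 6 oxidative phosphorylation, 5 ribosomal and 4 chaperone genes with the receptor gene covariate, and 8, 1, 3 and 1 without the pool block. In the NAc no member of any list was called with the covariate.

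mt-Nd5, which encodes a subunit of complex I (mitochondrial genome, GRCm39 positions 11742 to 13565), showed the pattern in single libraries. In the NAc its lowest, median and highest levels were 3543, 4282 and 4475 CPM in overlapping, 3427, 4037 and 4383 CPM in cocaine-seeking, 2285, 2914 and 3788 CPM in sucrose-seeking and 4161, 5906 and 6464 CPM in non-ensemble libraries. Overlapping and cocaine-seeking libraries covered nearly the same range, sucrose-seeking libraries lay mostly beneath it and non-ensemble libraries mostly over it, with some overlap at both edges. The geometric mean in overlapping libraries was 4104 CPM against an additive expectation of 2043 CPM, an interaction of 1.00 ± 0.101 (SE, edgeR quasi-likelihood test, adjusted p = 2.81e-07), and the 6 pools ranged from 0.83 to 1.33. In the mPFC the levels were 2163, 3066 and 3395 CPM in overlapping, 1969, 2901 and 3313 CPM in cocaine-seeking, 1527, 2370 and 3090 CPM in sucrose-seeking and 3121, 3743 and 4509 CPM in non-ensemble libraries. Every non-ensemble library lay above every sucrose-seeking one there and the other ranges overlapped, and the interaction was 0.86 ± 0.0882 (edgeR quasi-likelihood test, adjusted p = 6.15e-07), or 0.94 with the receptor gene covariate (adjusted p = 3.07e-05).

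Other members of these lists followed. Rplp1, a protein of the ribosomal stalk, had an interaction of 0.94 in the NAc (edgeR adjusted p = 1.24e-06), and Rpl8 of the large subunit 0.92 in the mPFC (edgeR adjusted p = 2.53e-06). Cox6a1, a subunit of cytochrome oxidase, reached 0.94 in the NAc (edgeR adjusted p = 2.56e-05), and Atp5f1b of the ATP synthase 0.64 in the mPFC (edgeR adjusted p = 6.86e-06). The constitutive chaperone Hspa8 reached 0.65 in the NAc and 0.74 in the mPFC. Lars2, the mitochondrial leucyl-tRNA synthetase, is not a member of these lists and was named for its high interaction. It had 1.33 in the NAc and 1.61 in the mPFC, at levels of 1885 to 16068 and 1299 to 7491 CPM across libraries, and its highest NAc library was a cocaine-seeking one.

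Genes of the synapse were mostly called above as well. Of 20 genes for presynaptic vesicle release 19 were called above in both regions (median 0.62 in the NAc, 0.66 in the mPFC) and none below. Of 17 postsynaptic scaffold genes 11 were above and 1 below in the NAc (median 0.44), and 11 above and 0 below in the mPFC (median 0.41). The presynaptic genes had a median level of 494 and 380 CPM and a share called above of 95% in both regions. The postsynaptic genes had a median level of 370 and 296 CPM and a share of 64.7%, which in the NAc is close to that of all genes above 300 CPM. Without the pool block 16 presynaptic and 10 postsynaptic genes were above in the NAc, against 3 and 0 in the mPFC. With the receptor gene covariate 15 and 3 were above in the mPFC, and 1 postsynaptic gene was below.

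Cplx1, which encodes complexin 1, a clamp of vesicle fusion (GRCm39 chr5:108666416-108697899), had NAc levels of 401, 512 and 565 CPM (lowest, median and highest) in overlapping, 417, 538 and 604 CPM in cocaine-seeking, 251, 346 and 469 CPM in sucrose-seeking and 545, 695 and 726 CPM in non-ensemble libraries. Only at the edges did the non-ensemble and sucrose-seeking ranges touch those of the tdTomato-positive populations. Overlapping libraries had a geometric mean of 501 CPM against 259 CPM expected, an interaction of 0.94 ± 0.105 (edgeR quasi-likelihood test, adjusted p = 7.27e-07) with all 6 pools above 0. Bsn, a scaffold of the active zone, had 0.82 in the NAc (edgeR adjusted p = 1.83e-07) and Shank1, a master scaffold of the postsynaptic density, 0.81 in the NAc and 0.57 in the mPFC. In the mPFC the vesicle protein gene Syn1 had 0.82 (edgeR adjusted p = 6.15e-07, and 0.000262 with the covariate) and the vesicle GTPase gene Rab3a 0.75.

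Channels and receptors were described next. Of 22 voltage-gated sodium and potassium channel genes 17 were called above in the NAc (median 0.33) and 7 in the mPFC (median 0.24), and of 12 GABA-A receptor genes 6 (median 0.34) and 5 (median 0.26), with none below. The channel genes had a median level of 164 and 106 CPM and a share called above of 77.3 and 31.8%. For the GABA-A receptor genes these were 73.8 and 74.7 CPM and 50 and 41.7%, and for the ionotropic glutamate receptor genes 179 and 188 CPM and 26.7% in both regions. Scn2b, a sodium channel beta subunit gene, had 0.72 in the mPFC (edgeR quasi-likelihood test, adjusted p = 3.99e-06). The 15 ionotropic glutamate receptor genes split, with 4 above and 2 below in both regions and a median of 0.14 in the NAc and 0.23 in the mPFC, which turned to −0.14 and −0.066 with length-scaled TPM counts. Grin2b, an NMDA receptor subunit, was above in both (0.43 in the NAc, where length-scaled TPM counts gave −0.0015, and 0.45 in the mPFC). Grik2, a kainate receptor subunit, was below in the mPFC at −0.67 (edgeR adjusted p = 3.27e-05, 0.000195 with the covariate, and 0.247 without the 4 pools of low Slc17a7). Its overlapping libraries ranged from 100 to 140 CPM, cocaine-seeking from 93.8 to 133 CPM, sucrose-seeking from 111 to 190 CPM and non-ensemble from 78.4 to 111 CPM.

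**Figure D2:**
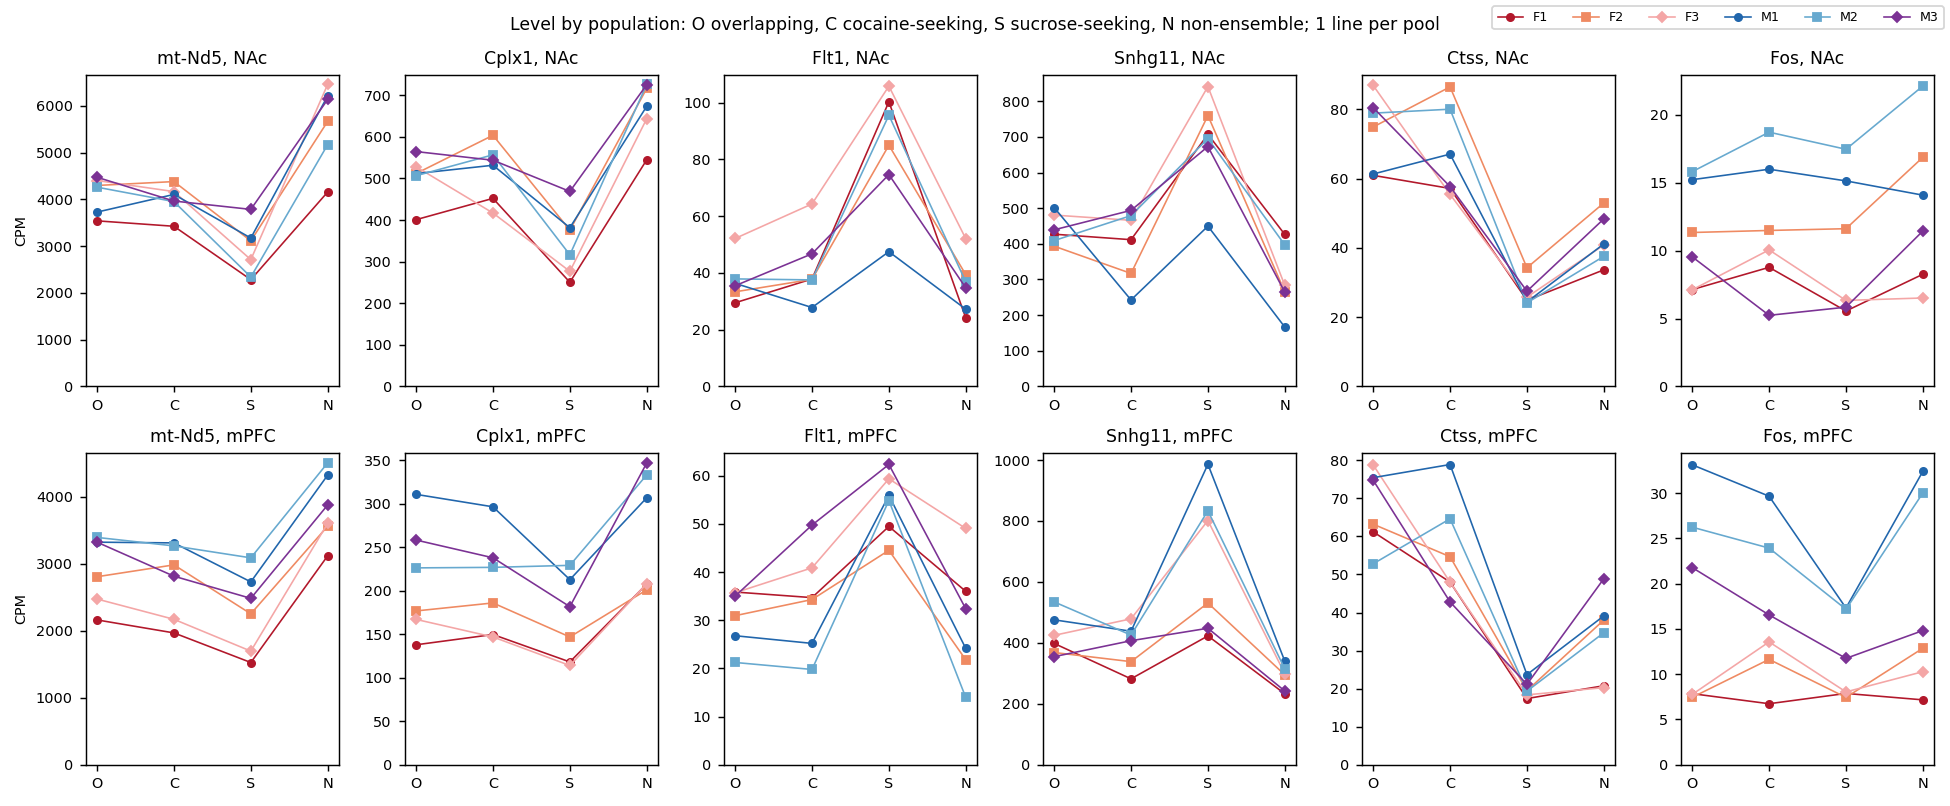
Level in CPM (vertical) of 6 genes in the NAc (top) and the mPFC (bottom) by population (horizontal: O overlapping, C cocaine-seeking, S sucrose-seeking, N non-ensemble), with 1 line per pool (red shades female, blue and purple male). Lines are mostly near level between O and C and part between S and N, where mt-Nd5 in the NAc spans 2285 to 3788 CPM in sucrose-seeking and 4161 to 6464 CPM in non-ensemble libraries, and Fos lines cross.

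Activity-dependent genes came next, since both tags were driven by Fos. Fos mRNA itself did not pass. Its NAc levels were 7.12, 10.5 and 15.8 CPM (lowest, median and highest) in overlapping, 5.24, 10.8 and 18.7 CPM in cocaine-seeking, 5.56, 8.98 and 17.5 CPM in sucrose-seeking and 6.52, 12.8 and 22.1 CPM in non-ensemble libraries, and the 4 ranges overlapped nearly throughout. The interaction was 0.34 ± 0.242 (edgeR quasi-likelihood test, adjusted p = 0.368), with 4 of 6 pools above 0. In the mPFC Fos was 7.44, 14.8 and 33.1 CPM in overlapping, 6.74, 15.1 and 29.7 CPM in cocaine-seeking, 7.44, 9.9 and 17.3 CPM in sucrose-seeking and 7.17, 13.8 and 32.4 CPM in non-ensemble libraries. Every male library lay above every library labelled female in all 4 populations, and the interaction was 0.47 ± 0.224 (edgeR adjusted p = 0.174), with −0.09 in females alone. Sucrose-seeking minus non-ensemble, the contrast of the cFos protein gate, gave a lower Fos mRNA in the mPFC (log2 −0.52, edgeR adjusted p = 0.0137) and −0.41 in the NAc (edgeR adjusted p = 0.0613).

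As a list, 9 of 23 immediate early genes were called above in the NAc and none below, with a median of 0.34 that turned to −0.059 with length-scaled TPM counts, where 1 was above and 1 below. In the mPFC 8 were above and 1 below (median 0.42). The shares above were 39.1 and 34.8%, at a median level of 17.8 and 24.7 CPM. For the cFos gate, sucrose-seeking minus non-ensemble was higher at 2 and lower at 10 of these genes in the NAc. In the mPFC it was higher at 2 and lower at 14. Among all NAc genes tested, 16.8% were higher and 19.6% lower in this contrast. For the mPFC the shares were 12.1% and 14.6%. The list had a median difference of −0.35 (NAc) and −0.52 (mPFC) here, beside −0.017 and 0.030 for all genes at 10 to 30 CPM. Shares called in this contrast were not split by level. Jund, a Fos partner in AP-1, had 1.02 in the NAc (edgeR quasi-likelihood test, adjusted p = 1.32e-06), with NAc levels of 121 to 177 CPM in overlapping, 118 to 168 CPM in cocaine-seeking, 70.7 to 134 CPM in sucrose-seeking and 134 to 213 CPM in non-ensemble libraries, and 0.77 in the mPFC. Arc, which encodes a capsid-like protein that regulates AMPA receptor traffic, had 0.65 in the NAc, where length-scaled TPM counts gave −0.23, and 0.54 in the mPFC. Ier5, an early-response cofactor, had 0.76 in the NAc.

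The 2 genes whose promoters stand above beside that of Fos went apart in the mPFC. Egr4, a zinc finger transcription factor, had 18.3, 36.5 and 55.3 CPM (lowest, median and highest) in overlapping, 19.9, 27.2 and 46.3 CPM in cocaine-seeking, 11.9, 29.3 and 51.5 CPM in sucrose-seeking and 26.9, 48.7 and 72.2 CPM in non-ensemble libraries. The ranges overlapped, yet within pools the departure ran from 0.73 to 1.32 and the interaction was 1.07 ± 0.137 (edgeR quasi-likelihood test, adjusted p = 5.18e-06, and 0.00235 with the receptor gene covariate). Npas4, a neuron-specific factor induced by calcium influx and named here after its values were seen, had 18.0, 23.3 and 34.0 CPM in overlapping, 14.3, 21.3 and 39.1 CPM in cocaine-seeking, 16.7, 25.9 and 47.0 CPM in sucrose-seeking and 11.7, 15 and 30.5 CPM in non-ensemble libraries. Its mPFC interaction was −0.66 ± 0.171 (edgeR adjusted p = 0.00677), with 6 of 6 pools below 0, but the adjusted p was 0.0598 without pool F2 and 0.491 without the 4 pools of low Slc17a7. In the NAc Npas4 had −0.40 ± 0.226 (edgeR adjusted p = 0.235).

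Slower activity-response genes, which follow the first wave, gave 9 of 25 above and 0 below in the NAc (median 0.28) and 10 above and 1 below in the mPFC (median 0.42). The shares above were 36 and 40%, at a median level of 30.8 and 19.7 CPM. Of all genes, 33.4% were above at 30 to 100 CPM in the NAc and 7.46% at 10 to 30 CPM in the mPFC. Vgf and Scg2, which encode granins of dense-core vesicles, had NAc interactions of 0.85 and 0.66 and mPFC interactions of 0.68 and 0.53, and Sik1, a kinase that restrains CREB coactivators, 0.78 in the mPFC. Without the pool block 5 were called above in the NAc and none in the mPFC.

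Markers of neuron types were described next. The NeuN gene Rbfox3, whose protein set the neuronal gate, was 212 to 251 CPM in overlapping, 219 to 259 CPM in cocaine-seeking, 182 to 255 CPM in sucrose-seeking and 239 to 309 CPM in non-ensemble NAc libraries. Its interaction was 0.41 there (edgeR quasi-likelihood test, adjusted p = 0.000808), turning to −0.047 with length-scaled TPM counts, and 0.45 in the mPFC (edgeR adjusted p = 0.0049). Of 17 interneuron markers 11 were called above in the NAc (median 0.52) and 8 in the mPFC (median 0.55), and none below. Their shares above were 64.7 and 47.1%, at a median level of 34.8 and 28.5 CPM. Sst, the somatostatin gene, had 181, 222 and 273 CPM in overlapping, 152, 223 and 334 CPM in cocaine-seeking, 101, 136 and 167 CPM in sucrose-seeking and 180, 225 and 281 CPM in non-ensemble NAc libraries. Every overlapping and non-ensemble library there lay above every sucrose-seeking one, and the interaction was 0.78 (edgeR adjusted p = 8.54e-06). The vesicular GABA transporter gene Slc32a1 had 0.85 in the NAc and 0.71 in the mPFC, Gad2, which makes GABA, 0.65 in the mPFC, and Nos1, the neuronal nitric oxide synthase gene, 0.69 in the NAc, where length-scaled TPM counts gave −0.28.

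Medium spiny neuron genes differed by list. Of 8 D1 markers 1 was called above in the NAc and 0 in the mPFC (median 0.12 and 0.052). Of 6 D2 markers 4 and 1 were above (median 0.38 and 0.11, turning to −0.053 and −0.17 with length-scaled TPM counts). The shares above were 12.5 and 0% for D1 markers, at a median level of 34.45 and 24.45 CPM, and 66.7 and 16.7% for D2 markers, at 62.6 and 54.3 CPM. The difference between these 2 lists was not tested. Penk, the enkephalin precursor gene of D2 cells, had 0.59 in the NAc, and Pdyn, the dynorphin precursor gene of D1 cells, 0.61. Of 14 genes shared by both types 9 were above and 1 below in the NAc (median 0.40, turning to −0.049 with length-scaled TPM counts) and 6 above and 2 below in the mPFC (median 0.32). The shares above for this list were 64.3 and 42.9%, at a median level of 352 and 240 CPM. Of all genes, 67.8% were above over 300 CPM in the NAc and 49.1% at 100 to 300 CPM in the mPFC. Ppp1r1b had 0.80 in the NAc and 0.57 in the mPFC, and Bcl11b, a transcription factor, 0.66 in the NAc, where length-scaled TPM counts gave −0.023, and 0.57 in the mPFC. Rgs9, a brake on dopamine receptor signalling, was below in the mPFC at −0.55 (edgeR adjusted p = 0.000606).

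Of 14 markers of cortical excitatory neurons 7 were above in the NAc (median 0.26) and 6 in the mPFC (median 0.37), and none below. Their shares above were 50 and 42.9%, at a median level of 78.7 and 55.8 CPM. Nrgn, a calmodulin-binding protein gene, had 0.82 in the NAc and 0.88 in the mPFC. Slc17a7 had 0.70 in the NAc, where length-scaled TPM counts gave −0.29, and 0.60 in the mPFC, where levels ran from 28.0 to 543 CPM in overlapping, 25.7 to 514 CPM in cocaine-seeking, 20.3 to 372 CPM in sucrose-seeking and 29.3 to 739 CPM in non-ensemble libraries, so that pools differed far more than populations.

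**Figure D3:**
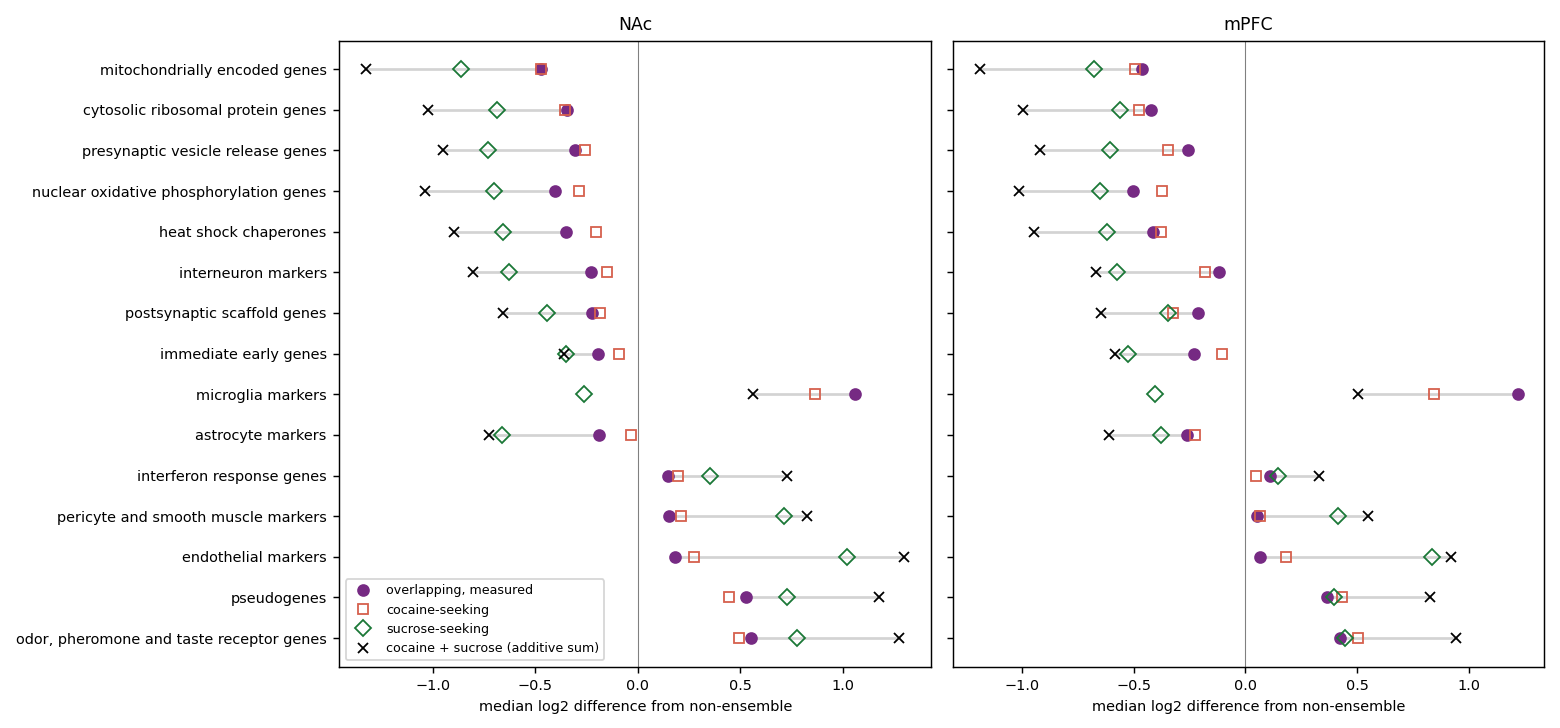
Median log2 difference from non-ensemble (horizontal) of each gene list (rows) in the NAc (left) and the mPFC (right), for overlapping (filled circles), cocaine-seeking (open squares) and sucrose-seeking libraries (diamonds), with the median sum of the last 2 (crosses) as the additive value. Circles lie near the squares and away from the crosses, as for mitochondrially encoded genes, whose median interaction was 0.90 in the NAc and 0.71 in the mPFC, and on the other side for endothelial markers, with −1.15 and −0.80.

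Cells other than neurons should be few behind a NeuN gate, yet none of the markers listed for them was at 0 throughout a region, and they followed 3 patterns. Microglial genes were higher wherever the tdTomato tag was present. Of all genes tested, 4.63% in the NAc and 6.06% in the mPFC were higher in cocaine-seeking than in non-ensemble libraries. Higher in overlapping than in sucrose-seeking libraries were 8.8 and 3.76%. Of 13 microglial markers 11 were higher in cocaine-seeking than in non-ensemble libraries of the NAc and 10 of the mPFC. All 13 and 12 of these markers were higher in overlapping than in sucrose-seeking libraries. Their summed level was 511 to 688 CPM in overlapping, 438 to 568 CPM in cocaine-seeking, 179 to 273 CPM in sucrose-seeking and 233 to 337 CPM in non-ensemble NAc libraries, and 487 to 644, 345 to 589, 168 to 214 and 194 to 319 CPM in the mPFC in the same order. In both regions no tdTomato-positive library overlapped a tdTomato-negative one in this sum. For the interaction 7 were above in the NAc (median 0.58) and 8 in the mPFC (median 0.70). These shares were 53.8 and 61.5%, at a median level of 24.9 and 22.1 CPM, beside 9.25 and 7.46% of all genes at 10 to 30 CPM.

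Ctss, the lysosomal protease cathepsin S of microglia (GRCm39 chr3:95433963-95463717), had 61.0, 76.9 and 86.9 CPM (lowest, median and highest) in overlapping, 55.5, 62.4 and 86.5 CPM in cocaine-seeking, 24.1, 25.3 and 34.3 CPM in sucrose-seeking and 33.7, 41.0 and 53.0 CPM in non-ensemble NAc libraries. The tdTomato-positive libraries lay above all others, and the interaction was 0.80 ± 0.141 (edgeR quasi-likelihood test, adjusted p = 0.000142). In the mPFC it was 1.02 (edgeR adjusted p = 0.0007), with 52.8 to 78.8 CPM in overlapping, 42.8 to 78.9 CPM in cocaine-seeking, 17.4 to 23.7 CPM in sucrose-seeking and 20.3 to 48.9 CPM in non-ensemble libraries. The complement genes C1qa in the NAc and C1qc in the mPFC had 0.70 and 0.76.

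Astrocyte markers resembled the neuronal lists, with 9 of 12 above and 0 below in the NAc (median 0.54) and 5 above and 1 below in the mPFC (median 0.26). The shares above were 75 and 41.7%, at a median level of 87.6 and 81.8 CPM. Their summed level in the NAc was 4310 to 5481 CPM in overlapping, 4360 to 6105 CPM in cocaine-seeking, 2808 to 4369 CPM in sucrose-seeking and 4937 to 6273 CPM in non-ensemble libraries. The glutamate transporter gene Slc1a2 had 0.79 in the NAc and 0.61 in the mPFC. Of 11 oligodendrocyte markers 5 were above and 1 below in the NAc (median 0.22), and 3 above in the mPFC, with a median of −0.062 that DESeq2 size factors turned to 0.0077 and length-scaled TPM counts to 0.083. The oligodendrocyte shares above were 45.5 and 27.3%, at a median level of 100 and 76.9 CPM. The myelin gene Mbp had 0.60 and 0.59. Among 8 oligodendrocyte precursor markers 2 were above and 1 below in the NAc and 1 above and 1 below in the mPFC (median 0.28 and 0.087, turning to −0.38 and −0.18 with length-scaled TPM counts), and Vcan, a proteoglycan gene, was the one below, at −0.67 and −0.66.

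Vascular markers went the other way. Of 12 endothelial markers 9 were called below in the NAc (median −1.15) and 7 in the mPFC (median −0.80), and of 10 pericyte and smooth muscle markers 4 (median −0.71) and 3 (median −0.42), with none above. The endothelial shares below were 75 and 58.3%, at a median level of 12.6 and 10.5 CPM. The pericyte shares were 40 and 30%, at 9.99 and 10.9 CPM. Of all genes at 10 to 30 CPM 11.6 and 8.74% were called below. Sucrose-seeking libraries were higher than non-ensemble ones at 10 of 12 endothelial markers in both regions and at 8 and 5 of the 10 pericyte markers. Of all genes tested 16.8 and 12.1% were higher in this contrast. For overlapping minus cocaine-seeking no gene was called, in these lists or outside them. The summed endothelial level was 144 to 204 CPM in overlapping, 140 to 252 CPM in cocaine-seeking, 151 to 388 CPM in sucrose-seeking and 138 to 208 CPM in non-ensemble NAc libraries. In the mPFC it was 115 to 177, 115 to 210, 218 to 274 and 90.3 to 208 CPM in the same order, and no other library overlapped the sucrose-seeking ones. In females alone 9 endothelial markers were below in the NAc and 1 in the mPFC, in males alone 3 and 5, and without the pool block 9 and 2.

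Flt1, a receptor for vascular endothelial growth factor (GRCm39 chr5:147498414-147662826), had 29.5, 35.9 and 52.1 CPM (lowest, median and highest) in overlapping, 27.8, 37.8 and 64.3 CPM in cocaine-seeking, 47.5, 90.3 and 106 CPM in sucrose-seeking and 24.1, 35.8 and 52.1 CPM in non-ensemble NAc libraries. The lowest sucrose-seeking library, of pool M1, lay within the other ranges and the other 5 lay above them all. Overlapping libraries had a geometric mean of 36.9 CPM against 96.0 CPM expected, an interaction of −1.40 ± 0.177 (edgeR quasi-likelihood test, adjusted p = 2.72e-06). In the mPFC Flt1 had −1.09 (edgeR adjusted p = 0.00042, and 0.0508 with the receptor gene covariate). The related receptor gene Kdr had −1.47 in the NAc, the organic anion carrier Slco1a4 of the blood-brain barrier −1.78 in the NAc and −1.76 in the mPFC, where its adjusted p with the covariate was 0.00244, and the efflux pump gene Abcb1a −1.77 in the mPFC. Of the pericyte list, Rgs5, a signalling regulator, had −1.07 and −1.20, and the chemokine gene Cxcl12 had −1.34 in the NAc. The part that vascular or microglial cells, fragments or their free RNA in the sorted events had in these results was not tested.

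Snhg11, the 1 long non-coding RNA of the nuclear list that was among the transcripts counted (GRCm39 chr2:158217558-158228071), was below in both regions. In the NAc it had 393, 433 and 502 CPM (lowest, median and highest) in overlapping, 243, 439 and 494 CPM in cocaine-seeking, 450, 701 and 841 CPM in sucrose-seeking and 167, 274 and 426 CPM in non-ensemble libraries. Non-ensemble libraries lay under every sucrose-seeking one, and the medians of the 2 tdTomato-positive populations stood between. The overlapping geometric mean was 440 CPM against 916 CPM expected, an interaction of −1.02 ± 0.197 (edgeR quasi-likelihood test, adjusted p = 0.000366). The mPFC gave 355, 411 and 535 CPM in overlapping, 282, 416 and 479 CPM in cocaine-seeking, 423, 666 and 986 CPM in sucrose-seeking and 233, 297 and 340 CPM in non-ensemble libraries, with −1.06 ± 0.143 (edgeR adjusted p = 9.03e-06, and 0.00118 with the covariate).

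Beyond the lists, the genes of at least 10 CPM with the most extreme interactions were named by rule. Above the expectation in the NAc stood Lrrc8a, a subunit of volume-regulated anion channels (1.39), Cebpa, a myeloid and liver transcription factor (1.23), and Cabp7, a calcium-binding protein gene (1.22). B4gat1, a glycosyltransferase gene, reached 2.26 in the NAc and 2.14 in the mPFC, but its cocaine-seeking libraries alone spanned 1.51 to 35.8 CPM in the NAc. Tomm6, of the outer mitochondrial membrane import pore, reached 1.93 in the NAc, and Nme2, a nucleoside diphosphate kinase gene, 1.37 in the mPFC. Below it in the NAc stood Mns1, a gene of motile cilia and sperm flagella (−1.77), Adam1a, a sperm protease gene (−1.37), and Ptprv, a phosphatase gene (−1.30). In the mPFC these were Eef1akmt3, a methyltransferase of elongation factor 1A (−1.23), Hapln2, a link protein of nodes of Ranvier (−1.28), and Zc3h11a, an RNA export factor (−1.85). Gm9343, a processed pseudogene whose counts are uncertain, had −2.13 there, with 0.477 to 13.9 CPM in overlapping libraries. Eef1akmt3 had 178 to 242 CPM in overlapping, 130 to 219 CPM in cocaine-seeking, 264 to 422 CPM in sucrose-seeking and 128 to 148 CPM in non-ensemble mPFC libraries, so that no other library reached the sucrose-seeking ones (edgeR quasi-likelihood test, adjusted p = 6.15e-07). The pseudogene Pgam1-ps2 was called in both regions at 0 CPM in all sucrose-seeking libraries and between 0 and 74.0 CPM elsewhere in the NAc. It shares reads with its parent gene, so its counts are uncertain and no fold is given.

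Taken within pools on log2(CPM + 1), 36 of the 52 genes chosen for the NAc lay above 0 in all 6 pools and 8 below 0 in all 6, and of the 50 for the mPFC 33 and 13 did. Most of these genes were chosen for their interaction in the same libraries, so this agreement is a description and no test of it is given. On linear CPM, where additivity means added levels and not multiplied folds, 35 and 8 NAc genes and 33 and 13 mPFC genes did so.

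The interaction followed expression level and base composition over all genes. Its median was −0.67 for NAc genes under 1 CPM, 0.0093 at 10 to 30 CPM and 0.45 above 300 CPM, and −0.52, −0.026 and 0.29 in the mPFC. Among genes of at least 10 CPM it was −0.072 in the quintile of lowest GC content (31.9 to 43.5% in the longest transcript) and 0.35 in the highest (54.7 to 71.3%) of the NAc, with 14.8% and 44.6% of genes called above. In the mPFC the medians were −0.12 and 0.25, with 14.3% and 34% called above. The medians of the abundant lists above are to be read beside these values. Of 1542 odor, pheromone and taste receptor genes tested in the NAc 236 were below and 3 above (median −0.71). Of 1685 in the mPFC 203 were below and 0 above (median −0.54). Among all genes tested 7.72% were below and 13.1% above in the NAc. For the mPFC these shares were 6.52% and 10.5%. The receptor gene medians were close to the −0.67 and −0.52 of all genes under 1 CPM. Whether their calls follow level was not tested.

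**Figure D4:**
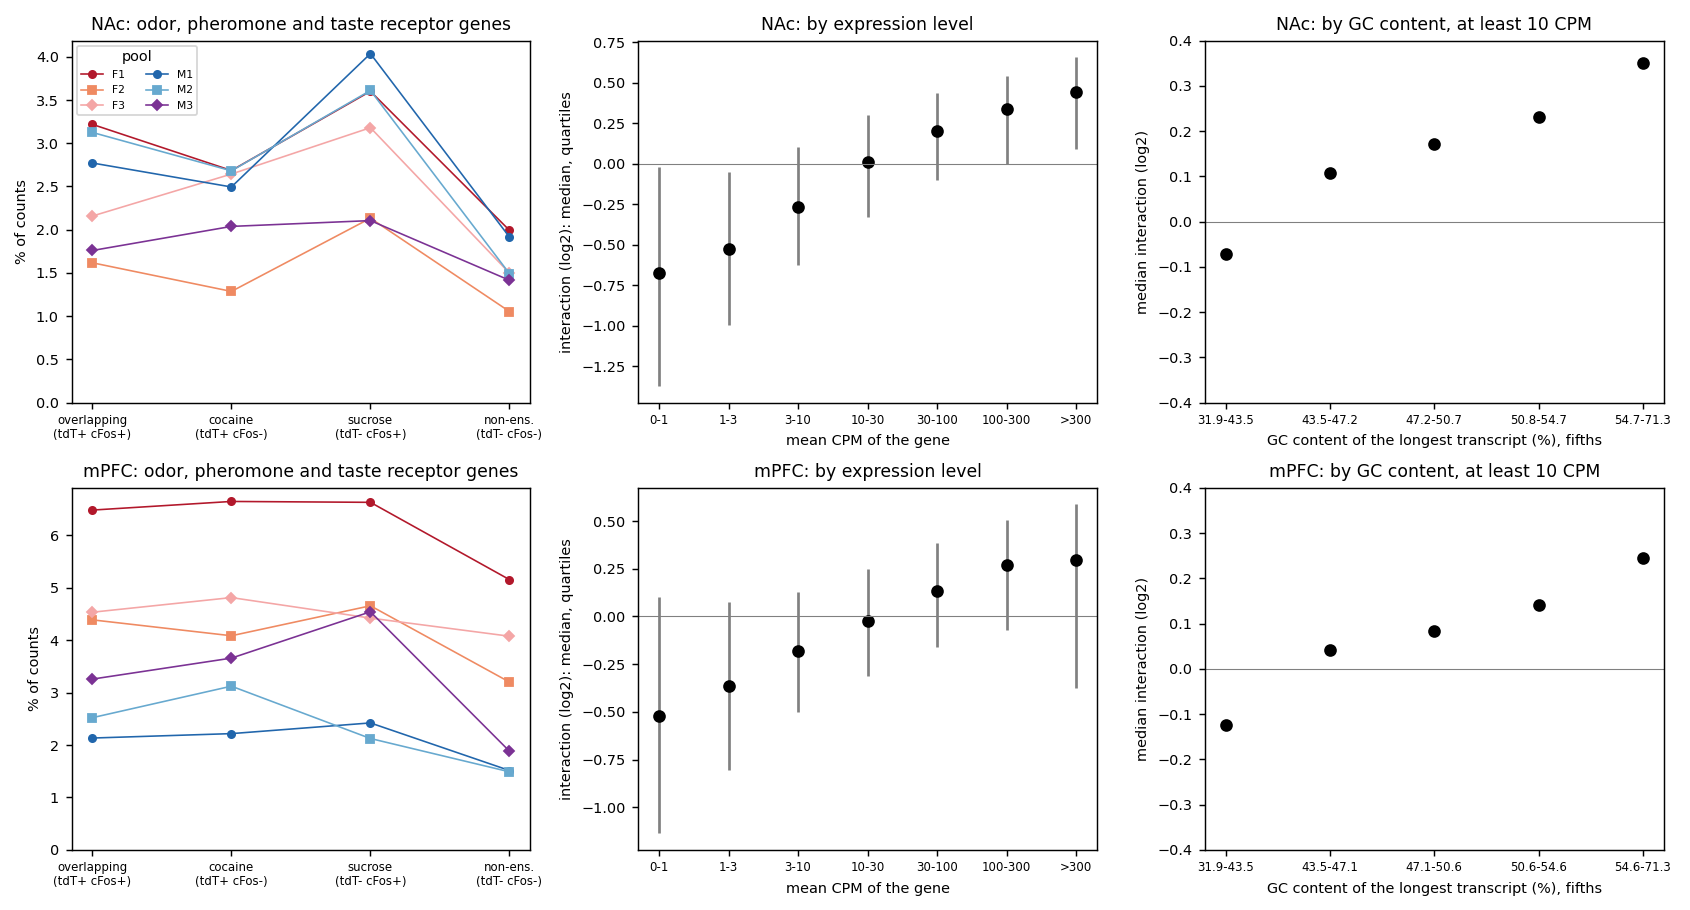
Left, share of counts in odor, pheromone and taste receptor genes (%) by population with 1 line per pool; middle, median interaction (log2, points) and quartiles (lines) of all genes tested by mean CPM; right, median interaction of genes of at least 10 CPM by quintile of GC content, for the NAc (top) and the mPFC (bottom). The share is lowest in non-ensemble libraries of every pool, and the median interaction climbs with level, to 0.45 above 300 CPM in the NAc, and with GC content, to 0.35.

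Females and males were compared by the difference of their interactions. By the edgeR quasi-likelihood test no gene passed in the NAc, with 0 higher (0%) and 0 lower (0%) in males, 873 at an unadjusted p under 0.05 and 0 by DESeq2. In the mPFC 0 were higher (0%) and 1 lower (0.00372%), with 1740 at an unadjusted p under 0.05 and 12 by DESeq2. That gene, the predicted gene Gm38356, had an interaction of −1.42 in males and −0.13 in females, a difference of −1.32 ± 0.207 (edgeR adjusted p = 0.0427). Only 3 pools per sex enter, and pool F2 counts as female by its label.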

How the data were processed

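The deposited per-library files hold, for each transcript, estimated counts and TPM values that the authors made with Salmon after trimming with Cutadapt. By the study's methods the reads came from a ribosome-depleted SMART-seq low-input library and the build was GRCm39, while the label for the molecule reads polyA RNA. The estimated counts deposited by the authors were summed to 35889 genes with GENCODE annotation (GRCm39) and rounded. Of 117209 transcripts 1124 matched no gene, which left out 2.23 to 7.10% of counts per library. The deposited TPM values were used only for an alternative with length-scaled counts. Counting does not separate near-identical copies, so pseudogene values are uncertain. Libraries differed in depth, and levels under a few CPM rest on few counts.

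Each region was fitted apart with edgeR 4.0.16 (quasi-likelihood, TMM factors, filterByExpr by population, population plus pool block), Benjamini-Hochberg adjusted over all genes tested. Libraries with the same pool label were taken, by their titles, to come from the same mice. Their deviations from group means correlated at a mean of 0.172 within pools in the NAc and 0.243 in the mPFC. Single NAc pools ranged from 0.0587 (M2) to 0.289 (F2). Between pools of the same sex the means were −0.0859 and −0.121. Deviations from a group mean sum to 0, which ties the between-pool value to the within-pool one. The correlations therefore cannot show whether the mice were the same. The exact sign-flip test used log2(CPM + 1) per pool. Alternatives used DESeq2 1.42.0, limma 3.58.1 and other filters, scalings and subsets.

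The libraries and the 28 gene lists were chosen with earlier results of these data known. Genes were named from those a rule gave in each region: Fos, Rbfox3, at most 3 called members of each list (smallest adjusted p), and at most 10 highest and 10 lowest called interactions among genes averaging 10 CPM or more. Npas4 was added after its values were seen. Some of the genes so chosen are not reported here. P-values of the fits with the pool block rest on the spread left between libraries once population and pool are fitted, with 6 pools as the replicates. Those of the sign-flip test rest on the 6 pool values.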

Additional observations from a re-analysis of the deposited data

Results flagged for a closer look

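In groups of 6 pools, a pool was picked out where its gap to the nearest other took a larger share of the whole range than Dixon's critical value for 6. Of 112 such groups examined 7 met this, and chance alone gives about 1 in 20. In the NAc the departure of pool M1 was 0.2934 for Cxcl12 and 0.623 for Rgs5, both above 0 where the other 5 pools lay below, and its sucrose-seeking library was also the lowest of the 6 for Flt1. Pool M3 stood apart in the NAc for Grin2b, at 0.2082. In the mPFC pool F1 stood apart for Vgf (0.9313), pool F2 for Sik1 (0.4119) and pool M3 for Gad2 (0.9853). The log2 departure of total counts in genes was 0.642 in mPFC pool M3.

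The interaction of the predicted gene Gm38356 differed between the sexes in the mPFC, by −1.316 (male minus female, edgeR quasi-likelihood test, adjusted p = 0.0427), at a mean level of 403 CPM.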

How the results depend on the processing

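The count of genes called for the interaction depended on several settings. With the pool block, 5240 genes were called in the NAc and 4585 in the mPFC. No paired structure in the model, that is no replicate block, gave 2701 and 485. Without the block the other contrasts gave 4121 genes for sucrose-seeking minus non-ensemble in the mPFC, 81 in both regions for cocaine-seeking minus non-ensemble, 760 in the NAc and 187 in the mPFC for overlapping minus sucrose-seeking, and 0 for the sex difference in the mPFC. Length-scaled TPM counts gave 2244 and 918, females alone 3327 and 1582, males alone 1104 and 1888, and the thresholds of an adjusted p under 0.01 with an absolute log2 value over 0.75 gave 818 and 506. With the receptor gene share as a covariate 1 gene was called in the NAc and 1182 in the mPFC, and 1 and 2608 for sucrose-seeking minus non-ensemble. Without the 4 mPFC pools of low Slc17a7 718 were called. DESeq2 called 4 genes in both regions for overlapping minus cocaine-seeking, 2807 for overlapping minus sucrose-seeking in the mPFC, 12 for the mPFC sex difference and 2 for the region difference. The mPFC sex difference gave 0 with DESeq2 size factors and 7 without a filter.

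Leaving out 1 pool gave 3368 (without F3) to 5619 (without M1) interaction calls in the NAc and 3432 to 4230 in the mPFC, 7749 to 8917 and 6123 to 6563 for sucrose-seeking minus non-ensemble, 1569 (without M2) to 3055 (without F2) and 3236 to 4212 for cocaine-seeking minus non-ensemble, 1608 (without F3) to 3555 (without M1) and 1008 (without M1) to 1898 (without M2) for overlapping minus sucrose-seeking, and 0 for overlapping minus cocaine-seeking.

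Some single genes changed direction. With length-scaled TPM counts the NAc interaction was −0.047 for Rbfox3, −0.23 for Arc, −0.28 for Nos1, −0.29 for Slc17a7, −0.023 for Bcl11b and −0.0015 for Grin2b. In the mPFC Fos was −0.090 in females alone, and Pgam1-ps2 was −15.8 with the covariate, where it rests on libraries at 0. The causes were not tested.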

Other observations

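Of 30 replication-dependent histone genes tested in the NAc 4 were above the additive expectation (13.3%, beside 13.1% of all genes tested) and 0 below (median 0.61), and of 31 in the mPFC 7 (22.6%, beside 10.5%) and 1 (median 0.58). The median level of this list was 3.96 CPM in the NAc and 7.22 CPM in the mPFC. Among its members are genes of linker histones, which compact chromatin, and of these H1f2 had an interaction of 0.85 in the NAc (edgeR quasi-likelihood test, adjusted p = 0.00011) and H1f4 0.84 in the mPFC (edgeR adjusted p = 3.4e-05). Of 20 chromatin regulators the NAc had 7 above and 2 below and the mPFC 5 above and 5 below (median 0.12 and 0.11, turning to −0.072 and −0.018 with length-scaled TPM counts). The shares above were 35 and 25%, at a median level of 101 and 112 CPM, beside 56.6 and 49.1% of all genes at 100 to 300 CPM. The deacetylase genes Hdac5 in the NAc and Hdac11 in the mPFC had 0.70 and 0.65. Tet2, a DNA demethylation enzyme gene, was below in the mPFC at −0.62 (edgeR adjusted p = 2.43e-05), with 121 to 168 CPM in overlapping, 113 to 155 CPM in cocaine-seeking, 151 to 228 CPM in sucrose-seeking and 98.0 to 135 CPM in non-ensemble libraries.

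Red blood cell genes gave 3 of 5 above in the NAc (median 0.93) and 4 of 5 in the mPFC (median 1.22), none of which was called without the pool block. These shares were 60 and 80%, at a median level of 25.3 and 18.2 CPM, beside 9.25 and 7.46% of all genes at 10 to 30 CPM. Hba-a1, an alpha-globin gene, had 1.02 in the NAc and 1.29 in the mPFC. Of 15 interferon response genes none was called in either direction in either region by the edgeR quasi-likelihood test (median −0.30 in the NAc and −0.088 in the mPFC), while 1 and 2 had an unadjusted p under 0.05 and DESeq2 called 0 and 1. Their median level was 6.66 and 9.89 CPM. Of all genes at 3 to 10 CPM 1.75 and 0.835% were called above and 8.04 and 3.81% below. Choroid plexus and ependymal markers gave 1 of 7 above in the NAc, with a median of −0.18 that turned to 0.14 with length-scaled TPM counts, and 2 of 8 above in the mPFC (median 0.11). The shares were 14.3 and 25%, at a median level of 4.83 and 19.3 CPM, beside 13.1 and 10.5% of all genes tested.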
